A study of Mus musculus with 8 samples.

Results

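Of the 8 long noncoding RNAs of the nucleus named for this account (Malat1, Neat1, Miat, Pvt1, Lncenc1, Tug1, Dleu2 and Rmst), 7 had a row of their own name in a table of 38911 entries other than spike-ins; Rmst was not analysed here. The members were set by name, in a choice made with earlier results of these data known. All 7 passed the filter on low values. Their RNA was read by 4sUDRB-seq in male mouse embryonic stem cells (ESCs) of a 129 background, derived from blastocysts, kept without feeder cells in serum and LIF, and carrying conditional knockout alleles of Ythdc1 in every group. Cells had 4 days of 4-hydroxytamoxifen (4OHT, 1 μg/ml), the compound used to start deletion in inducible knockout lines, or of its solvent DMSO. All groups then had 100 μM of DRB, a blocker of RNA polymerase II elongation, during 3 h. After the washout, 4-thiouridine (4sU, 1 mM) was given during 0 or 8 min and the labelled RNA was purified with biotin and streptavidin. The groups were 4OHT at 0 min, DMSO at 0 min, 4OHT at 8 min and DMSO at 8 min, with 2 libraries each. A label of 0 min leaves no time for 4sU to be taken up, so those libraries read background RNA without the label. How much background RNA the 8 min libraries hold was not tested. The sample titles name ESC number 1 at 0 min and number 2 at 8 min. By them the groups of each time share a number and the times differ in it. The column names of the deposited values instead carry numbers 1 and 2 at both times. The driver of the recombinase and the number of clones are not given in the sources used here.

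Long noncoding RNAs are transcripts that are not translated into a known protein, and many stay in the nucleus. Malat1 is among the most abundant of them and collects in nuclear speckles, bodies rich in splicing factors. Neat1 is the scaffold around which paraspeckles form. YTHDC1, the product of the targeted gene, is the nuclear reader of N6-methyladenosine (m6A), a mark that MALAT1 is known to carry in human cells. Miat, also called Gomafu, is best known from neurons. Pvt1 is the neighbour of the Myc oncogene, Lncenc1 is a transcript of naive ESCs, Tug1 was first described in the retina, and Dleu2 is the host of miR-15a and miR-16-1.

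The members differ widely in the length of their genes (GRCm38.p6, the patch release of mm10). Malat1 spans 6.98 kb on chromosome 19 (5795690 to 5802672, minus strand, gene ID 72289) and Neat1 spans 20.77 kb on the same chromosome (5824708 to 5845480). Tug1 spans 9.03 kb on chromosome 11 (3639785 to 3648814, minus strand). Miat spans 15.72 kb on chromosome 5 (112213228 to 112228948, minus strand). Lncenc1 spans 62.7 kb on chromosome 13 (97434970 to 97497664, plus strand), Dleu2 79.54 kb on chromosome 14 (61602836 to 61682373, minus strand), and Pvt1 222.23 kb on chromosome 15 (62037986 to 62260215).

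The start regions of 3 members that passed the test at 8 min are shown because the members moved in different directions, Malat1 and Miat higher and Dleu2 lower with 4OHT. Each is the RefSeq stretch of 300 bases (GRCm38.p6, minus strand, 250 before to 50 after the start), at chr19:5802623-5802922 for Malat1, chr5:112228899-112229198 for Miat and chr14:61682324-61682623 for Dleu2. Capitals mark matches, on either strand, to CCAAT (the box of that name), to GGGCGG (GC box), to TGACGT (the core of the cAMP response element), to CACGTG (E-box), and to the letters AATAAA or, as a TATA box, TATAAA.
Malat1: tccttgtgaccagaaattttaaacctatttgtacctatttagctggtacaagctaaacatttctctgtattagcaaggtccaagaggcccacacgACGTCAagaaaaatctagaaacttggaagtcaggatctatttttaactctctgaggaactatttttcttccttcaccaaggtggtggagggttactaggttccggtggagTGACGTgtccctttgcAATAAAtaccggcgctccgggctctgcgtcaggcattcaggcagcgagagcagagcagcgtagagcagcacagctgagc
Miat: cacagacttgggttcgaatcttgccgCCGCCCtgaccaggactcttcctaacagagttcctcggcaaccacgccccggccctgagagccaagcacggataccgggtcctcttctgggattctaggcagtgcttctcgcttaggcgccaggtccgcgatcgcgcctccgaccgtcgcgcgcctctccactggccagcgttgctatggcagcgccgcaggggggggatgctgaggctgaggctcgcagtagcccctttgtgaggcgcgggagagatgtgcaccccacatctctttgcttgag
Dleu2: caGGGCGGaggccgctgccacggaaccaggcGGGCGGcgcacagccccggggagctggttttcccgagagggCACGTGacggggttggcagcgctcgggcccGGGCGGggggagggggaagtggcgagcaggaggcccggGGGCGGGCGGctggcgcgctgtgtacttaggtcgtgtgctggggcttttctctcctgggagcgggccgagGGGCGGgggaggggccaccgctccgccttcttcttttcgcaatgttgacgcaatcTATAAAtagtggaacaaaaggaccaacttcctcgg
The Malat1 stretch held TGACGT once on each strand, which 7.5% of 32851 promoters hold at least once, and 1 AATAAA, which 19.6% hold. The Miat stretch held 1 match to GGGCGG, on the opposite strand (35.7% of promoters). The Dleu2 stretch held GGGCGG 6 times, a pair of them overlapping, with 1 CACGTG (7.2%) and 1 TATAAA (13.6%). CpG dinucleotides numbered 10 in the Malat1 stretch, 25 in that of Miat and 29 in that of Dleu2, at percentiles 56.5, 81.6 and 87.1 of all promoters. The matches are a description of the letters only.

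Dleu2 also holds the hairpins of 2 microRNAs, whose main mature forms share the seed AGCAGCA (bases 2 to 8, in capitals). They lie at chr14:61631936-61631957 (miR-16-5p) and chr14:61632075-61632096 (miR-15a-5p) on the minus strand, the strand of Dleu2, per RefSeq.
miR-16-5p: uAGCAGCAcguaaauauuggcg
miR-15a-5p: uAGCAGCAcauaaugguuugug

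Depth ran from 93.1 M to 133.9 M reads a library with 8 min of label, where M is mega, and from 46.3 M to 61.4 M with 0 min. On the deposited scale the libraries of a group differed by a shared factor, and the median entry at 8 min was 1.43 higher (log2) with 4OHT. After scaling by the reads on 60 spike-in RNAs that median was 0.12, and after the median-ratio scaling used below it was 0.00. Changes with 4OHT are therefore read relative to the median entry, and the deposited values are given where they turn a result. ESC markers (Pou5f1, Nanog, Sox2 and 5 others) summed to 690 to 707 RPM (reads per M of all reads) in 4OHT and 690 to 752 in DMSO cells at 8 min. Ythdc1 had scaled values of 2045 and 2471 in 4OHT against 2941 and 3576 in DMSO cells at 8 min, 0.693-fold (adjusted p = 0.00108, limma; 0.0502 without the first 4OHT library). Its reads at 8 min were thus lowered rather than absent, and on the deposited scale the sign turned (0.93). At 0 min Ythdc1 was not lower with 4OHT (log2 fold change 0.24 ± 0.37, SE) and did not pass the test. The sources used here do not say which part of Ythdc1 is deleted.

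At 8 min of label, Pvt1, Malat1 and Miat were higher with 4OHT, Neat1 and Dleu2 were lower, and Tug1 and Lncenc1 did not pass the test (limma, two-sided, Benjamini-Hochberg over 21652 entries at 0.05). That is 3 members higher and 2 lower of 7, in a comparison that called 34% of all entries, 17.9% higher and 16.1% lower. The members' median log2 fold change was -0.01 and that of all entries 0.00. Scaled libraries of the groups did not overlap for 6 of 7 members (3 higher and 3 lower). The same held for 66.7% of all entries (33.3% higher and 33.4% lower). The calls are of reads at 8 min, and what part of those reads was newly made RNA was not tested. Relative to the median entry, Neat1 and Dleu2 rose from 0 to 8 min in DMSO cells (1.39 and 4.27, log2). Malat1, Miat and Pvt1 did not on that scale (-0.06, -0.57 and -1.68). With spike-in scaling these 3 turned positive, as did Malat1 and Miat on deposited values. By the sample titles the labelling times also differ in ESC number.

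**Figure D1:**
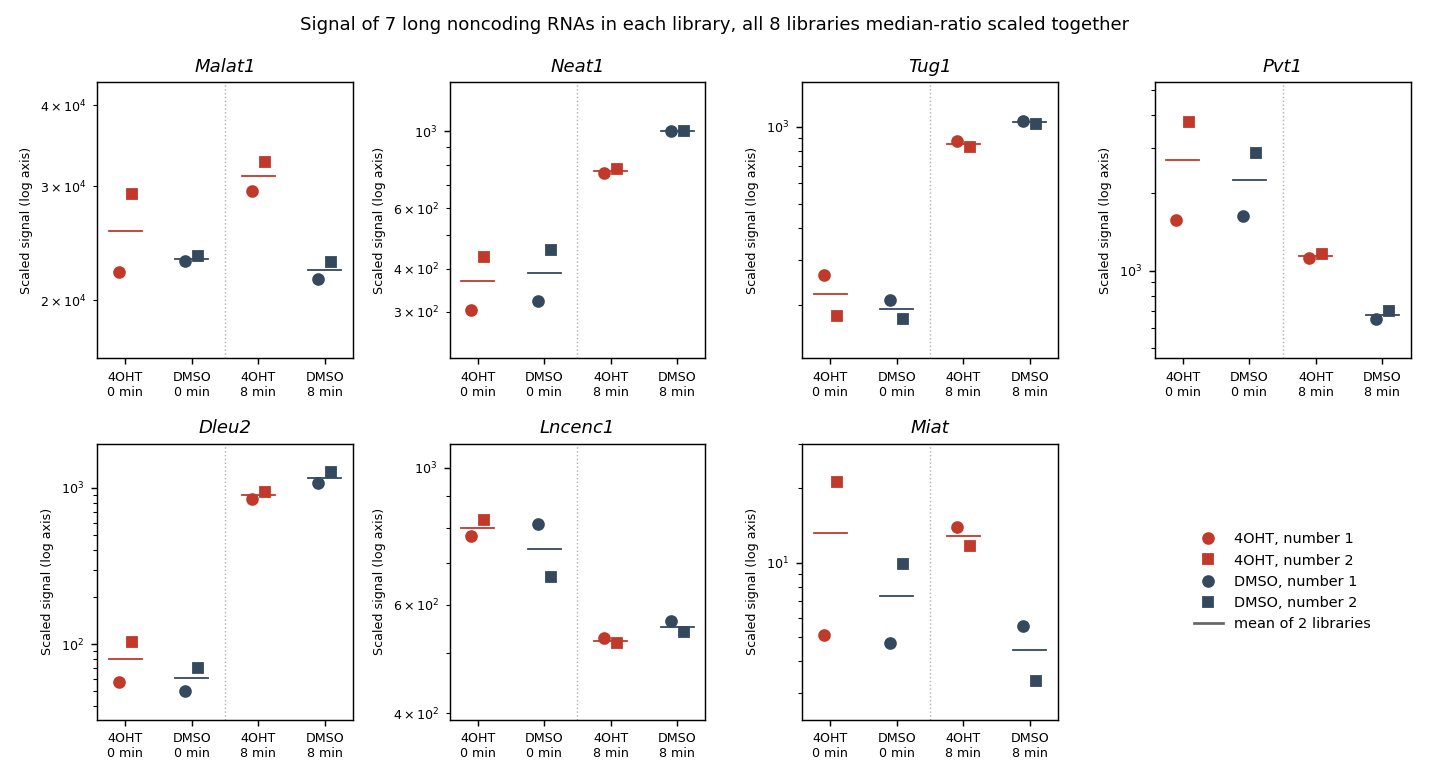
Scaled value of each member in each of the 8 libraries (log axis, all 8 libraries median-ratio scaled together), with 4OHT left of DMSO at each labelling time; points are libraries and bars are group means. At 8 min the 4OHT points lie above the DMSO points for Malat1, Pvt1 and Miat, and below them for Neat1, Dleu2, Tug1 and, in this joint scaling, Lncenc1.

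Malat1, the RNA of nuclear speckles, had scaled values of 58478 and 63679 in 4OHT against 40624 and 42566 in DMSO cells. Both 4OHT libraries lay above both DMSO libraries, and the means were 61078 ± 3678 and 41595 ± 1373 (SD, n = 2 each), 1.47-fold. The log2 fold change was 0.55 ± 0.11 (SE, adjusted p = 0.00063, limma), at the 85.4th percentile of all entries. The call was lost without either 4OHT library (adjusted p = 0.115 and 0.176) and without a filter on low values (0.0545), with the direction kept.

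Neat1, the paraspeckle scaffold that lies beside Malat1 on chromosome 19, moved the other way. Its scaled values were 1499 and 1520 in 4OHT against 1894 and 1870 in DMSO cells, with no overlap. The log2 fold change was -0.32 ± 0.09 (adjusted p = 0.0111, limma), or 0.802-fold. It too missed the threshold without either 4OHT library (adjusted p = 0.12 and 0.0759) and without a filter (0.0551). On the deposited scale its sign turned (1.14), since the 4OHT libraries as a whole lie higher there.

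The ratio of Malat1 to Neat1 reads within a library needs no scaling between libraries. It was 39.0 and 41.9 in 4OHT against 21.4 and 22.8 in DMSO cells at 8 min. At 0 min it was 72.7 and 67.3 in 4OHT against 71.4 and 51.5 in DMSO cells, where the groups overlapped. The ratios show unequal change between both RNAs and not which of them moved.

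Pvt1, the neighbour of Myc, had the smallest adjusted p of the members. Its scaled values were 2218 and 2270 in 4OHT against 1222 and 1294 in DMSO cells, 1.78-fold, and the groups lay far apart relative to the spread within each. The log2 fold change was 0.84 ± 0.09 (adjusted p = 1.76e-06, limma). Myc itself, 47.6 kb away, had a log2 fold change of 0.29 that did not pass (adjusted p = 0.147, limma). The within-library ratio of Pvt1 to Myc reads was 19.7 and 20.7 in 4OHT against 12.8 and 14.9 in DMSO cells. The Pvt1 call held without each library of the comparison in turn.

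Miat had the largest fold change of the members, from few reads. Its reads numbered 410 and 386 in 4OHT against 148 and 70 in DMSO cells. Its scaled values were 27.5 and 22.8 in 4OHT against 10.5 and 6.18 in DMSO cells, without overlap and 2.87-fold. The log2 fold change was 1.52 ± 0.31 (adjusted p = 0.000999, limma), at the 98.5th percentile of all entries, and the call held without each library in turn. Neural markers, the cell type in which Miat is best known, summed to 63.3 to 69.5 RPM in 4OHT and 63.9 to 71.4 in DMSO cells at 8 min, so the ranges overlapped. None of 5 neural markers tested passed at 8 min.

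Dleu2, the microRNA host, was lower with 4OHT. Its scaled values were 1691 and 1827 in 4OHT against 2026 and 2337 in DMSO cells, 0.808-fold, with no overlap. The log2 fold change was -0.31 ± 0.10 (adjusted p = 0.0204, limma). The call was lost without the first 4OHT library (adjusted p = 0.231), without the second DMSO library (-0.20, adjusted p = 0.125) and without a filter (0.106). The rows of its microRNAs held few reads and were below the filter: Mir15a had 58 and 40 reads in 4OHT against 31 and 21 in DMSO cells, and Mir16-1 had 34 and 23 against 30 and 2.

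Tug1 and Lncenc1 did not pass. Tug1 had 1741 and 1627 in 4OHT against 1976 and 1912 in DMSO cells, a log2 difference of -0.21 ± 0.09 (adjusted p = 0.089, limma) without overlap, and it passed when the filter was set at 100 (-0.24, adjusted p = 0.0305). Lncenc1 had 1048 and 1012 in 4OHT against 1064 and 1006 in DMSO cells, a difference of -0.01 ± 0.10 (adjusted p = 0.972, limma). Its groups overlapped, as those of no other member did at 8 min. Scaled together with the 0 min libraries it had 529 and 519 in 4OHT against 565 and 541 in DMSO cells, without overlap.

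**Figure D2:**
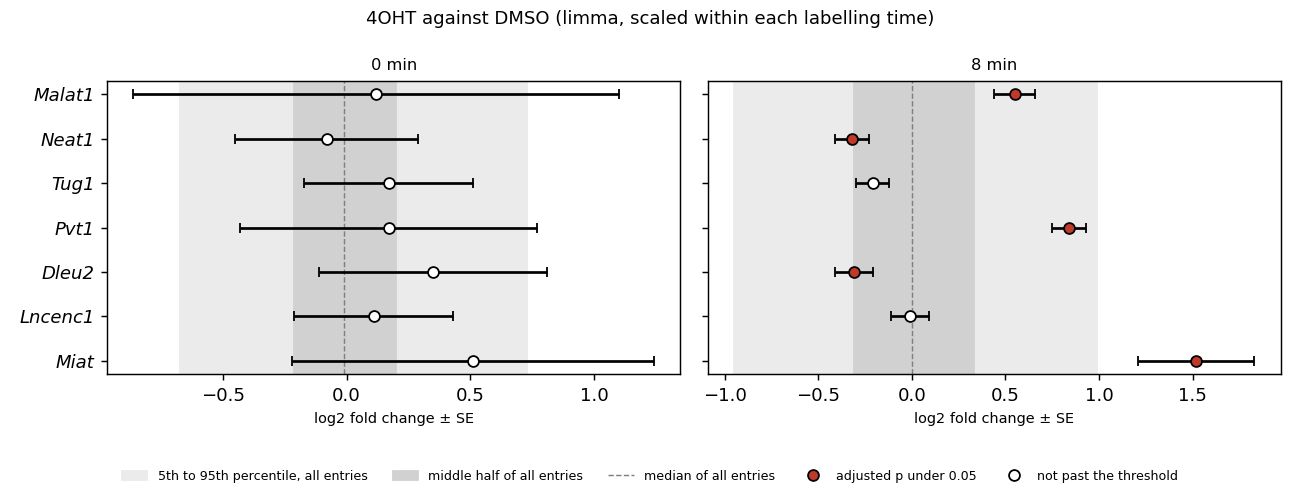
Log2 fold change of 4OHT over DMSO for each member at each labelling time (points, with SE), against the spread of all entries (shaded). At 8 min Miat stands at 1.52, Pvt1 at 0.84 and Malat1 at 0.55, and Neat1 and Dleu2 at -0.32 and -0.31; at 0 min no member passed.

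These calls rest on the scale. With spike-in scaling no member passed at 8 min (adjusted p = 1 for each), although Miat (1.60), Pvt1 (0.96), Malat1 (0.68), Neat1 (-0.19) and Dleu2 (-0.18) kept their signs. On the deposited values of the 4 libraries all 7 members lay above DMSO, and Malat1 (2.02, adjusted p = 0.022), Miat (2.87, 6.26e-05), Pvt1 (2.30, 0.00536) and Lncenc1 (1.46, 0.0477) passed. No member passed in a fit of all 8 scaled libraries, which includes the spread at 0 min.

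Each comparison within a library that uses Tug1 as the divisor is likewise free of scaling. Pvt1 to Tug1 was 1.27 and 1.4 in 4OHT against 0.618 and 0.676 in DMSO cells. Miat to Tug1 was 0.0158 and 0.0140 in 4OHT against 0.00530 and 0.00323 in DMSO cells. Both ratios separated the groups. Dleu2 to Tug1 was 0.971 and 1.12 in 4OHT against 1.03 and 1.22 in DMSO cells, which overlapped. Tug1 itself had a log2 difference of -0.21 with 4OHT at 8 min on the main scale, without overlap. A ratio to Tug1 therefore does not show which RNA of the pair moved.

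**Figure D3:**
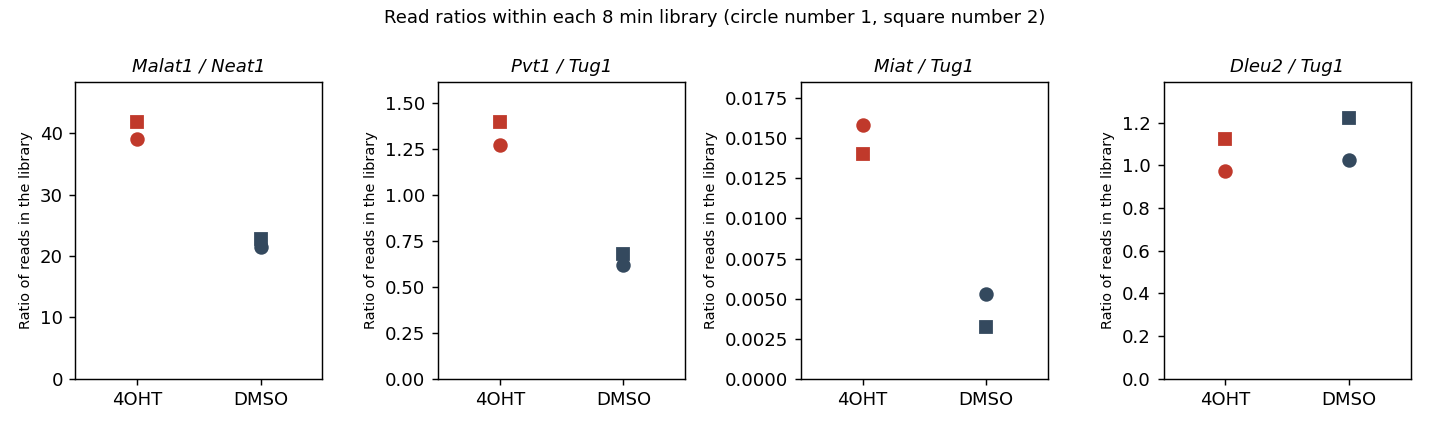
Ratios of reads of one member to another within each 8 min library, for 4OHT (left) and DMSO cells (right), which do not depend on how libraries are scaled; points are libraries. Malat1 to Neat1 was 39.0 and 41.9 in 4OHT against 21.4 and 22.8 in DMSO cells at 8 min.

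At 0 min no member passed (adjusted p = 1 for each, limma), and no entry in the table did, with 142 entries higher and 91 lower at an unadjusted p under 0.05; edgeR and DESeq2 called none either. The members' groups overlapped throughout, against non-overlap in 18% of all entries (9.29% higher and 8.73% lower). Malat1, for example, had 11413 and 15235 in 4OHT against 11803 and 12448 in DMSO cells, and Pvt1 had 812 and 1979 against 838 and 1516. The libraries of a group differed about as much as the groups did, and the column numbers went with part of this. Spike-in reads were 1013 (number 1) and 6684 (number 2) per M reads in 4OHT and 1199 and 6182 in DMSO cells. With the number as a block no member passed at 0 min either (adjusted p = 0.951 to 0.961, limma). Log2 differences lay between -0.08 (Neat1) and 0.51 (Miat), with SE from 0.32 to 0.98. Without the second 4OHT library the signs of Malat1 (-0.09), Miat (-0.34), Pvt1 (-0.47) and Dleu2 (-0.08) turned.

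Between 0 and 8 min of label the members were compared relative to the median entry. Dleu2, Tug1 and Neat1 were higher at 8 min in both 4OHT and DMSO cells, and Pvt1 was lower, while Malat1 and Miat did not pass in either (limma on all 8 libraries scaled together). In 4OHT cells 3 members were higher and 2 lower, where 55.3% of all entries were called (29% higher and 26.3% lower), and in DMSO cells 3 were higher and 1 lower, where 55.1% were (29.7% higher and 25.4% lower). On other scales 8 min lies higher as a whole: spike-in scaling moved the median entry to 3.10 in 4OHT and 3.00 in DMSO cells (log2), and left 5 members higher in 4OHT cells, 4 in DMSO cells and none lower. Deposited values gave 6 and 3 higher, and none lower. Dleu2, Tug1 and Neat1 passed as higher on all 3 scales. By the sample titles ESC number 1 was used at 0 min and number 2 at 8 min. Under that layout labelling time and ESC number cannot be told apart. The column names carry numbers 1 and 2 at both times instead, and the labels do not settle which layout holds. These comparisons share their 8 min libraries with those above.

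Dleu2 made the largest step of the members. Its values in the joint scaling were 854 and 938 at 8 min against 56.9 and 103 at 0 min in 4OHT cells, 11.5-fold (adjusted p = 0.00014, limma). In DMSO cells they were 1076 and 1257 at 8 min against 50.0 and 70.5 at 0 min, 19.3-fold (adjusted p = 7.73e-05, limma). Tug1 was 3.92-fold and Neat1 2.12-fold higher at 8 min in 4OHT cells, and 5.38-fold and 2.63-fold in DMSO cells. In each of these the 8 min libraries lay above the 0 min libraries. The Neat1 call in 4OHT cells was lost without either 4OHT library of 8 min (adjusted p = 0.0508 and 0.054, limma), at 1.10 and 1.05 on the log2 scale.

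Relative to the median entry Pvt1 ran the other way, at 1120 and 1165 at 8 min against 1570 and 3786 at 0 min in 4OHT cells, 0.469-fold (adjusted p = 0.0493, limma). In DMSO cells it had 649 and 696 at 8 min against 1630 and 2847 at 0 min, 0.312-fold (adjusted p = 0.00903, limma). With spike-in scaling the sign turned in both (2.15 and 1.48 on the log2 scale), and on deposited values in 4OHT cells (1.4, against -0.42 in DMSO cells), none of them past the threshold. The DMSO call was lost without the second DMSO library of 0 min (adjusted p = 0.0519) or either of 8 min (0.0593 and 0.0525), and the 4OHT call without either 4OHT library of 8 min (0.171 and 0.148) or the second of 0 min (0.245), and without either DMSO library of 8 min (0.0824 and 0.0838). Lncenc1 had a log2 change of -0.61 in 4OHT (adjusted p = 0.0275, limma), which was lost without either 4OHT library of 8 min (0.137 and 0.147) or either DMSO one (0.0656 and 0.0668), and -0.41 in DMSO cells (0.104); with spike-in scaling both signs turned (2.63 and 2.74). Malat1 had 0.29 in 4OHT and -0.06 in DMSO cells, and Miat had 0.24 and -0.57; with spike-in scaling Malat1 had 3.54 and 3.10, both past the threshold.

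**Figure D4:**
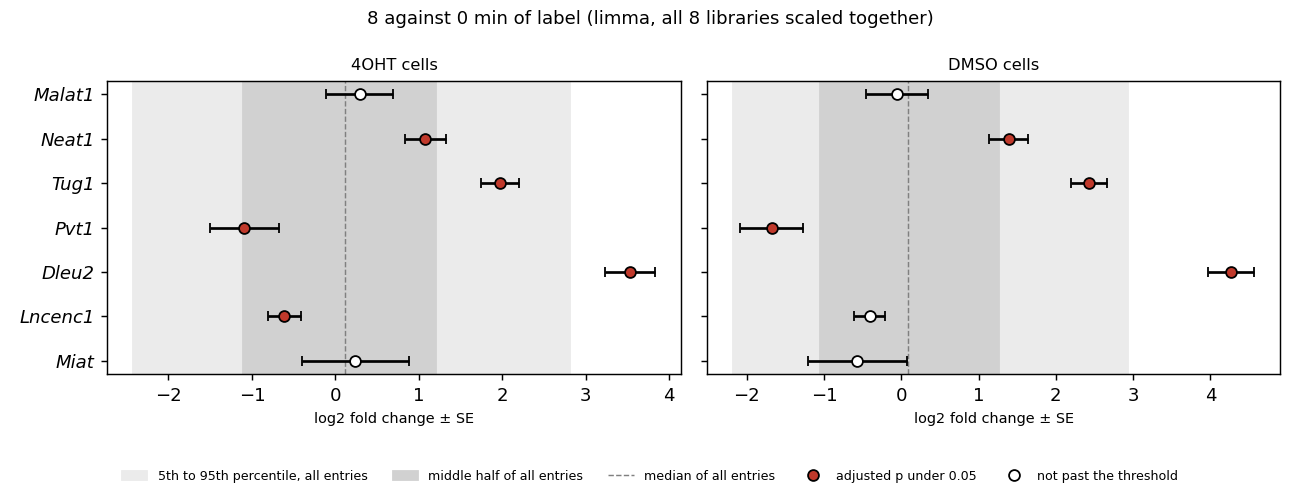
Log2 fold change of 8 over 0 min of label for each member (points, with SE), in 4OHT cells (left) and DMSO cells (right), against the spread of all entries (shaded). Dleu2 stands farthest out, at 3.53 in 4OHT and 4.27 in DMSO cells, and Pvt1 lies lowest, at -1.09 and -1.68.

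Whether the 4OHT effect differed between 8 and 0 min was tested as an interaction. No member passed, with differences from -0.74 (Dleu2) to 0.81 (Miat) and adjusted p from 0.899 to 0.99 (limma). No entry passed in the table as a whole (smallest adjusted p = 0.372), while 524 were higher and 773 lower at an unadjusted p under 0.05, and DESeq2 called 37 higher and 117 lower.

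Levels were compared between members as RPM per kb of gene span, since the members differ in length. Malat1 led by far at 8 min, with a mean of 1103 in 4OHT and 739 in DMSO cells. Tug1 (23.5 in 4OHT and 26.7 in DMSO cells) and Neat1 (9.17 and 11.2) came next. Dleu2 (2.79 and 3.40), Lncenc1 (2.07 and 2.05), Pvt1 (1.27 and 0.702) and Miat (0.202 and 0.0661) followed. On this scale the order was the same in both groups, and neighbours in it did not overlap. The order depends on dividing by the whole gene span, and whether introns were counted is not given in the sources used here. After DRB and 8 min of release, the labelled stretch may be shorter than a long gene such as Pvt1 (222.23 kb). Dividing by the whole span would then lower the value of that gene. How far labelled RNA reached along each gene was not tested. At 0 min in DMSO cells Malat1 stood at 551, with Tug1 (3.55) and Neat1 (3.10) overlapping, as did Lncenc1 (1.95) and Pvt1 (1.67), and Dleu2 (0.126) and Miat (0.0774).

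**Figure D5:**
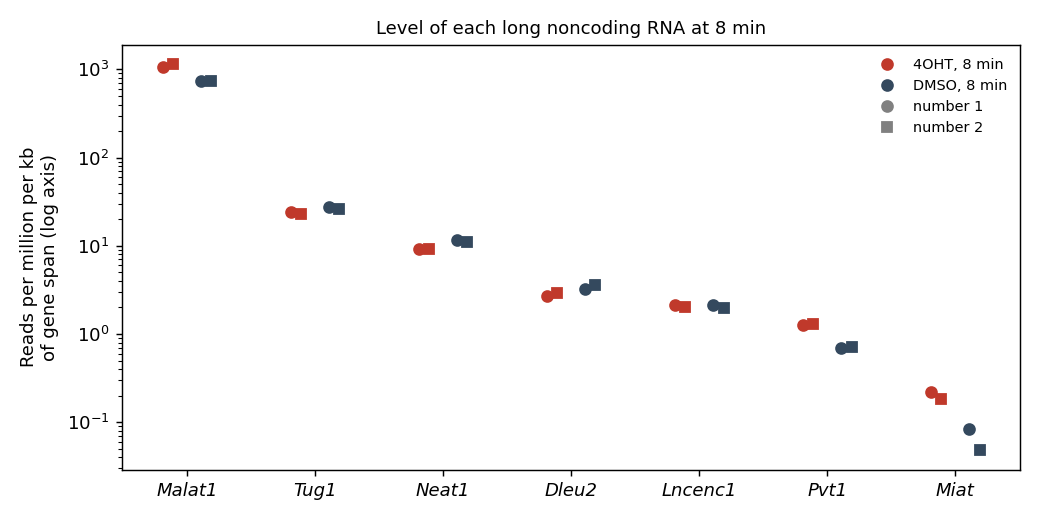
Level of each member as RPM per kb of gene span (log axis) at 8 min in 4OHT and DMSO cells, with points for libraries. Malat1 stands apart at the top, at 1103 in 4OHT and 739 in DMSO cells at 8 min, and Miat lies lowest. The divisor is the whole span, which in long genes may exceed the stretch labelled in 8 min.

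Malat1 also made up most of the members' reads. The members took 0.839% and 0.91% of all reads in 4OHT against 0.617% and 0.621% in DMSO cells at 8 min, and Malat1 alone took 0.736% and 0.805% against 0.514% and 0.518%. Its part of the members' reads ran from 83.2% to 88.5% over the 8 libraries. At 0 min a single entry, Gm26917, took 23.4% to 27.8% of reads, against 2.67% to 3.92% at 8 min, which lowers every other share there.

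The genes beside the members were read the same way at 8 min. Frmd8, 5.5 kb from Neat1, did not pass (log2 fold change 0.13, adjusted p = 0.486, limma). Overlapping the Dleu2 span on the opposite strand, Trim13 (0.28, 0.0471) and Kcnrg (0.46, 0.0139) were higher while Dleu2 was lower, and Spryd7, 46.0 kb away, was higher too (0.45, 0.0045). The ratio of Trim13 to Dleu2 reads was 0.309 and 0.273 in 4OHT against 0.210 and 0.178 in DMSO cells. Since the counting strand is not given in the sources used here, reads of Dleu2 and of Trim13 or Kcnrg cannot be told apart where they overlap. Morc2a, whose gene lies 375 bases from Tug1, had 0.00 (0.991), and Smtn had -0.03 (0.901). Enc1 and Arhgef28 beside Lncenc1, Mn1 beside Miat and Dleu7 beside Dleu2 did not pass.

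Other long noncoding RNAs were counted at 8 min beside the shares over all entries, 17.9% higher and 16.1% lower. Of 53 listed, 39 were tested, and 9 were higher and 7 lower, near those shares, with a median of 0.09. Meg3 (0.85) and Mirg (1.37), both of the imprinted Dlk1-Dio3 region, and Lncpint (0.79) were among the higher ones. Platr14 (-0.60), Snhg11 (-0.65) and Snhg1 (-0.40), a host of small nucleolar RNAs, were among the lower ones.

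Genes of the bodies that Neat1 and Malat1 belong to were counted beside them, against the same shares of 17.9% higher and 16.1% lower over all entries. Of 20 paraspeckle protein genes, 1 was higher (Ahdc1, 1.34) and 7 were lower, with a median of -0.20; Hnrnpk (-0.61), an RNA-binding protein, Zc3h6 (-0.61) and Aqr (-0.32) had the smallest p-values of the lower ones. Of 25 speckle protein genes, 3 were higher (Dyrk1a 0.43, a kinase; Acin1 0.32; Luc7l3 0.25) and 6 lower, with a median of -0.12, among them the splicing factors Srsf10 (-0.58), Srsf1 (-0.41) and Srsf11 (-0.48). Of 15 m6A genes tested, Virma (0.35), part of the methyltransferase complex, was higher, and Rbm15b (-0.72) and Ythdc1 (-0.53) were lower.

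Markers of other cells moved as well, and their part in the members' values was not tested. The 2-cell-like markers Zscan4c (2.96), Zscan4d (3.40) and Zscan4f (2.92) were higher with 4OHT, and all 8 markers of that list summed to 30.1 to 32.5 RPM in 4OHT against 2.92 to 3.10 in DMSO cells at 8 min. Tcstv1, Tcstv3 and Tdpoz4 were at 0 in both DMSO libraries. The 7 fibroblast markers summed to 2.16 to 3.85 in 4OHT and 4.91 to 6.17 in DMSO cells, with Col1a1 lower (-1.04). The 4 trophoblast markers summed to 3.23 to 4.90 and 7.05 to 7.49, with Krt8 lower (-0.98). Only 2 markers of each of these lists passed the filter on low values. Col1a1 alone had a mean of 1.58 RPM in 4OHT and 3.23 in DMSO cells, and Krt8 1.93 and 3.50. Dcn and Postn, below the filter, had higher means in 4OHT cells, while those of the other fibroblast markers were lower. The 5 primitive endoderm markers summed to 8.53 to 9.44 in 4OHT and 6.74 to 8.71 in DMSO cells, ranges that overlapped, with Dab2 higher (0.71, adjusted p = 0.0335, limma) and Foxa2 at 0 in both 4OHT libraries. Among ESC markers Dppa4 (0.65) and Sox2 (0.44) were higher and Nanog (-1.01) lower. In bulk libraries, more cells of a type and more RNA per cell cannot be told apart.

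The entries whose profile over the 8 libraries was most like each member's were found by the root mean square difference of log2 values, each less its own mean, among 21651 others. Malat1 lay closest to Pcdhga4 and Pcdhgb2, of the protocadherin gamma cluster (0.062 each, against a median of 0.76). Neat1 lay closest to the repeat RLTR30D_MM (0.057) and Ccnyl1 (0.083), Tug1 to Gtf2f1 (0.069) and Bet1 (0.104), and Dleu2 to Zfand5 (0.091) and Eloc (0.159). Pvt1 lay closest to Zfp423 (0.082) and Slit3 (0.083), Lncenc1 to Trap1a (0.074) and the repeat Lx5 (0.081), and Miat, with the fewest reads, to Irs4 (0.191) and Vps8 (0.208). Of the members themselves, Malat1 and Lncenc1 were the nearest pair (0.39), ahead of Neat1 and Tug1 (0.587).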

How the data were processed

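The authors deposited 1 table of signal values for 8 libraries, made per the submitters' processing notes with bcl2fastq, STAR 2.7, Bowtie2 and mm10; the counter, the strand and whether introns were counted are not given in the sources used here. Multiplying the deposited signal by 1 divisor per library gave whole reads (100% of values within 0.01); the meaning of the divisor is not given. Columns were assigned to groups only, since their numbers 1 and 2 do not match the titles, in which the cell number changes with labelling time. A column without 4OHT in its name was taken as DMSO.

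Of the 38911 entries other than spike-ins, 21652 had at least 10 in at least 2 libraries. They were median-ratio scaled (not the deposited scale) and fitted as log2(value + 1) in limma 3.58.1 (R 4.3.3; two-sided, empirical Bayes with a trend), on the 4 libraries of a time for 4OHT against DMSO and on all 8 otherwise. Fold changes are on that log2 scale and understate those of low entries. Recovered counts were also tested with edgeR 4.0.16 and DESeq2 1.42.0. Names of 27329 entries matched a RefSeq symbol (GRCm38.p6). Scripts were tested on simulated data. Nothing says that libraries came from separate cultures, so p-values measure the spread between libraries, which may be technical. Reads are not independent molecules.

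Named were all members, Ythdc1, the nearest protein-coding genes, hosted microRNAs, the 2 entries most alike in profile, and up to 3 genes of each list in each direction by smallest p at 8 min; 1 gene under this rule is not reported here. Members and lists were chosen with earlier results of these data known. Read as a pair, number 1 less number 2 correlated between 4OHT and DMSO at 0.48 at 0 min and 0.09 at 8 min. The number follows the letters CKO in the column names, but no label says whether it stands for a cell line. Numbers were therefore not used as pairs in the main fits, and fits with the number as a block are given beside them.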

Additional observations from a re-analysis of the deposited data

How the results depend on the processing

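Miat and Pvt1 kept their direction and their call at 8 min under every pseudocount, tool and left-out library tried; no alternative with an all-library scaled fit or spike-in scaling called any member. The count of members called at 8 min (3 higher, 2 lower) became 4 and 0 on the deposited values of the 4 libraries, 3 and 0 in the deposited fit of all 8, 0 and 0 with spike-in scaling or the scaled fit of all 8, 2 and 0 without a filter, and 2 and 3 with the filter at 100, which removes Miat. Leaving out a library gave 2 to 3 higher and 0 to 2 lower; a lone library of a group is then assumed to vary like the others. For 8 against 0 min in DMSO cells (3 higher, 1 lower), the lower count was 0 on deposited values and with spike-in scaling and 2 with the filter at 100, and 0 to 1 without a library. In 4OHT cells (3 higher, 2 lower) it was 6 and 0 on deposited values, 5 and 0 with spike-in scaling, 1 lower with a pseudocount of 0.5 and 0 lower without a filter, and 2 to 3 higher and 0 to 2 lower without a library.

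Signs turned as follows, and the cause was not tested. On deposited values at 8 min: Neat1 1.14, Lncenc1 1.46, Tug1 1.25, Dleu2 1.15 and Ythdc1 0.93; Lncenc1 was 0.12 with spike-in scaling, 0.02 without a filter, and -0.05 to 0.03 without a library. At 0 min Neat1 was 0.23 on deposited values and 0.03 with spike-in scaling; without a library the ranges were -0.35 to 0.18 (Neat1), -0.08 to 0.42 (Tug1), -0.09 to 0.34 (Malat1), -0.34 to 1.39 (Miat), -0.47 to 0.82 (Pvt1), -0.08 to 0.79 (Dleu2), -0.13 to 0.62 (Ythdc1) and -0.01 to 0.23 (Lncenc1). For 8 against 0 min in DMSO cells, deposited values gave Malat1 1.20, Miat 0.44 and Lncenc1 0.85, spike-in scaling Malat1 3.10, Miat 2.05, Pvt1 1.48 and Lncenc1 2.74, and no filter Malat1 0.15. In 4OHT cells, deposited values gave Pvt1 1.4 and Lncenc1 1.88, spike-in scaling Pvt1 2.15 and Lncenc1 2.63, the filter at 100 Malat1 -0.16, DESeq2 Miat -0.03, and leaving out a library Miat -0.67 to 1.16. For the difference of the 4OHT effect, deposited values gave Neat1 0.92, Lncenc1 1.03, Tug1 0.78, Dleu2 0.50 and Ythdc1 0.38, and leaving out a library -0.08 to 1.75 (Miat) and -0.02 to 1.22 (Pvt1).

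Over all entries at 8 min (3876 higher, 3482 lower) the counts were 12802 and 31 on deposited values, 5 and 4 with spike-in scaling, 2 and 26 in the scaled fit of all 8, 12211 and 26 in the deposited fit of all 8, 2345 and 2096 with the filter at 100, and 2369 and 2194 without the first 4OHT library. For 8 against 0 min in DMSO cells (6427 higher, 5493 lower) they were 10049 and 391 on deposited values, 10388 and 0 with spike-in scaling, 3295 and 3254 with the filter at 100, and 4089 and 2968 or 3910 and 2716 without a DMSO library of 8 min. In 4OHT cells (6273 and 5694) they were 16166 and 169, 11138 and 6, 3204 and 3296, and 3760 and 3199 or 3957 and 3635 without a 4OHT library of 8 min. The difference gave 75 and 0 on deposited values and 1 and 0 with spike-in scaling.

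With the library number as a replicate block the members' count at 8 min stayed at 3 higher and 2 lower and that at 0 min at 0, and that of all entries was 4462 higher and 4086 lower; the number is not shown to pair libraries. The spread at 0 min limits what could be seen there. Miat rests on 70 to 410 reads a library at 8 min.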
